A study of Mus musculus with 10 samples.

Results

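The lactate dehydrogenase and monocarboxylate transporter genes were followed in mSCLC-2405, a line of mouse small cell lung cancer (SCLC) cells, after culture with or without stiripentol. The set holds 8 genes chosen by symbol: the lactate dehydrogenases Ldha, Ldhb, Ldhc and Ldhd, the transporters Slc16a1 (MCT1), Slc16a3 (MCT4) and Slc16a7 (MCT2), and Bsg, which encodes the transporter chaperone basigin. Of these, 7 had a row among the 26335 rows of the deposited table and Ldhc was not analysed here. The line came from a primary lung tumor of a mouse model in which tumor suppressor genes, Rb1 among them, are deleted by Cre, delivered into the trachea by adenovirus, so control and treated cells share this origin. Cells were grown in RPMI medium with 10% FBS and received DMSO (5 control libraries) or stiripentol (5 libraries) for 48 h. All libraries come from this single line, and the sample records do not say whether they came from separate cultures, so p-values measure the spread between these libraries, which may be technical. Stiripentol is an antiseizure drug known to inhibit lactate dehydrogenase.

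Lactate dehydrogenase passes electrons between pyruvate with NADH and lactate with NAD+, and in cells with a high rate of glycolysis it restores the NAD+ that glycolysis uses. The active enzyme is assembled from LDHA and LDHB subunits in varying proportion, with LDHC largely restricted to the testis, while LDHD is a mitochondrial enzyme that acts on D-lactate. Lactate then crosses the plasma membrane together with a proton through monocarboxylate transporters, of which MCT1 is widespread and MCT4 is typical of cells that export lactate. MCT1 and MCT4 need basigin to reach the plasma membrane, and MCT2 uses its relative embigin.

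The promoters of the genes that the results turn on were read from RefSeq (GRCm38.p6), as the 250 bases upstream of the annotated start, 5′ to 3′ on the strand of the gene. Promoters were matched by symbol for 6 of the 8 genes. Capitals mark ACGTG, the core letters of most sites bound by hypoxia-inducible factors, on either strand, and CACGTG, the E box bound by MYC family proteins. Every CACGTG contains ACGTG on both strands, so the motifs overlap and each CACGTG counts as 2 ACGTG matches at 1 site. The Ldha promoter lies at chr7:46845554-46845803 on the + strand, that of Ldhb at chr6:142507958-142508207 on the − strand, that of Slc16a1 at chr3:104638414-104638663 on the + strand and that of Slc16a3 at chr11:120948817-120949066 on the + strand.
Ldha: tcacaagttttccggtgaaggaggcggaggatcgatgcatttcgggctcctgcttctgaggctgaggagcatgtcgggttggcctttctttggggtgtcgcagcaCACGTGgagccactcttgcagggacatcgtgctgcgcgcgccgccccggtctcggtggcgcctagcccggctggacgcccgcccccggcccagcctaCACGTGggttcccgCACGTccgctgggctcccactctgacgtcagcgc
Ldhb: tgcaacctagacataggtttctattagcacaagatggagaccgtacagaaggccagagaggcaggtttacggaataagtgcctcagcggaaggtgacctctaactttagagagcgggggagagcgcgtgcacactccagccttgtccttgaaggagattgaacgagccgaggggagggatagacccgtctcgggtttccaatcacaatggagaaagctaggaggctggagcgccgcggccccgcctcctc
Slc16a1: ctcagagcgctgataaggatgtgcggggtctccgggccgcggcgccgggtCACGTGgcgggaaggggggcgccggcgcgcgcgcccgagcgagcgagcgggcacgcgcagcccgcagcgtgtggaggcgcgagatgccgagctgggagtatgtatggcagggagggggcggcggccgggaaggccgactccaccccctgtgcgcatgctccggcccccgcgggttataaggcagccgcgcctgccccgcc
Slc16a3: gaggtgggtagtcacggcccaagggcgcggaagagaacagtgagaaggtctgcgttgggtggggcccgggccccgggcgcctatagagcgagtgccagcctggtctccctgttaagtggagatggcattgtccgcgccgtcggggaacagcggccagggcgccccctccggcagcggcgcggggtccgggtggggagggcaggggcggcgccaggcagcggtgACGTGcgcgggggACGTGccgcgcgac
The Ldha promoter held 5 matches to ACGTG at 3 separate sites, 2 of them the full E box. At least 1 such site was present in 16.6% of the 32851 promoters of the same length, and at least 3 in 0.256%. The Slc16a1 promoter held 1 E box, found in 6.02% of promoters, as did that of Ldhd, which is not printed. The Slc16a3 promoter held 2 sites of ACGTG outside an E box. At least 2 sites, inside or outside an E box, were present in 1.95% of promoters. These letters were not in the Ldhb window. CG dinucleotides numbered 25 in the Ldha, 14 in the Ldhb, 37 in the Slc16a1 and 29 in the Slc16a3 window, with a median of 6 over all promoters. A second Ldha start in RefSeq had no match in its window, and the matches describe sequence only.

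RNA levels are given as deposited, in log2 CPM (read counts scaled to library size, on a log2 scale, with a small number of reads added before the logarithm). Whole reads could be recovered from 100% of the values, with 22375625 to 65299372 reads per control library and 55015760 to 60670901 per stiripentol library. In both groups the libraries separated into clusters: controls 1 to 3 and stiripentol 3 to 5 (cluster A), and controls 4 and 5 with stiripentol 1 and 2 (cluster B). Within a group, the correlation between libraries across genes was at least 0.983 inside a cluster and at most 0.939 between clusters. Clusters were paired between the groups by their size, as in the numbering of libraries that the study itself uses, and what separates them is not given in the sources used here. The value of a gene without reads was -4.82 in controls 1 to 3 and -4.74 in the other 7 libraries. Among controls the cluster thus goes with the number of reads added before the logarithm. The controls also differed in CPM of the recovered reads, to which none are added. For Bsg this was 534, 522 and 603 in controls 1 to 3, and 1601 and 1494 in controls 4 and 5. Other differences in processing between these controls were not tested. Each comparison is therefore given for all libraries and within each cluster. The clusters were cut from correlations over the same genes that are tested. Their labels are thus not independent of the values. The p-values within clusters, with a cluster term or for the interaction are therefore descriptive. Of the expected markers, Ncam1 was expressed (6.69 ± 0.14 in control, SD, n = 5), as were the epithelial keratins Krt8, Krt18 and Krt19. The epithelial markers Epcam, with at most 1 read in any library, and Cdh1, with 11 to 63 reads, were absent or scarce. The neuroendocrine markers Insm1, Chgb and Dll3 had at most 10, 5 and 3 reads in any library and Syp at most 20, so most of this list was near 0.

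Ldha, which encodes the subunit that favours pyruvate reduction, was the only member of the family called in the comparison of all libraries, and it fell. Its log2 CPM was 9.48, 9.50, 8.73, 9.88 and 9.82 in controls 1 to 5, and 7.76, 7.71, 8.85, 8.66 and 8.67 in stiripentol 1 to 5. Control 3 stood below the other controls and below stiripentol 3, and these were the only libraries at which the groups overlapped. On the linear scale Ldha went from 741 ± 205 CPM in control to 340 ± 118 CPM in stiripentol libraries (SD, n = 5). The log2 change was -1.15 (standard error 0.28, 95% confidence interval -1.78 to -0.52, limma adjusted p = 0.0143), so that the geometric mean with stiripentol was 0.450 of that in control. Of the 4 family members that passed the filter on low values (mean log2 CPM above 0), 1 was called lower and 0 were called higher, where 14.1% of the 12306 genes tested were lower and 13.6% were higher. Within cluster A the Ldha change was -0.51 and missed the threshold (limma adjusted p = 0.0524), and within cluster B it was -2.11 (limma adjusted p = 2.83e-08). In cluster B all genes had a median change of -0.25, and in cluster A of 0.08. Ldha was lower in 5 of 5 pairs of libraries in the study's own numbering. All 4 pairings of a control cluster with a stiripentol cluster gave a lower mean with stiripentol, from -0.51 to -2.11. Ldha lies at chromosome 7, bases 46841475 to 46855627 on the + strand (GRCm38, GENCODE M21), and processed copies of it lie elsewhere in the genome. The 4 copies in the table held 381 reads in control and 185 in stiripentol libraries, 0.195% and 0.188% of the Ldha reads. Few reads were thus counted at these copies in both groups. Other copies, such as Gm9247 (95.6% identity over 1000 bases), had no row. Reads left uncounted for matching several places could not be seen.

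**Figure D1:**
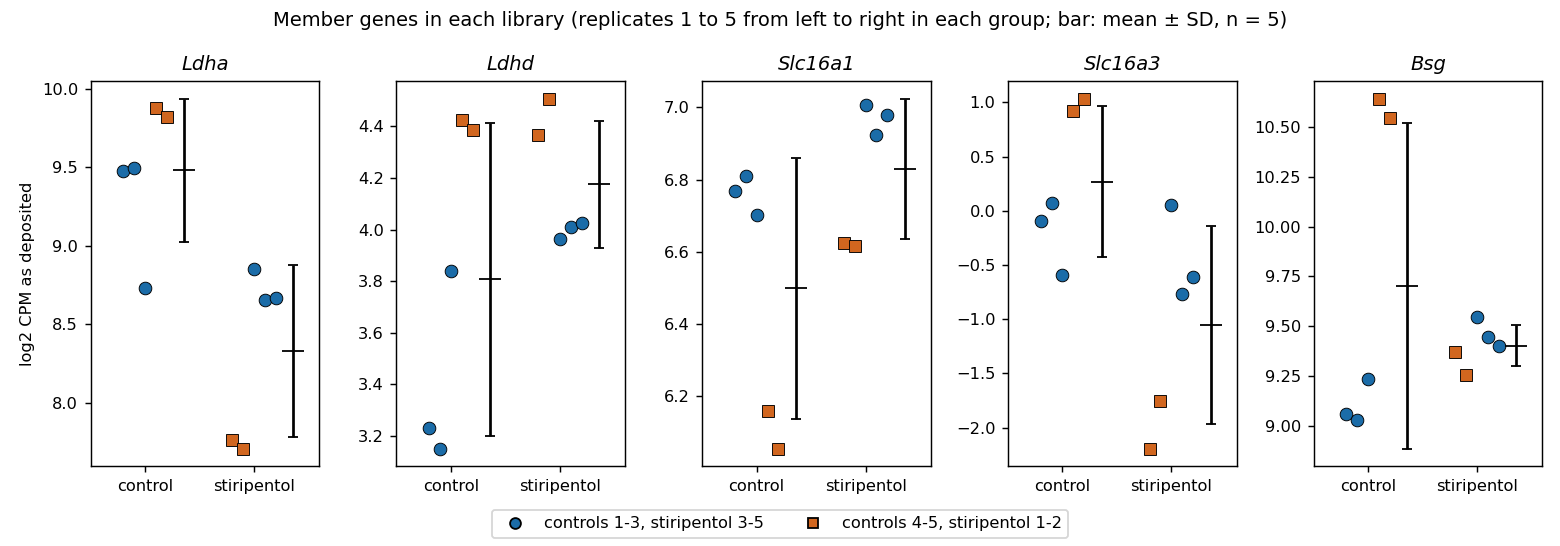
Log2 CPM as deposited (y axes, each with its own range) of 5 family members in the 5 control and 5 stiripentol libraries, with circles for controls 1 to 3 and stiripentol 3 to 5, squares for controls 4 and 5 and stiripentol 1 and 2, and a bar for the mean ± SD. In Ldha every stiripentol library but stiripentol 3 sits below all controls, and in Bsg controls 4 and 5 sit apart at 10.6 and 10.5.

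Ldhb, which encodes the subunit that favours lactate oxidation, was at or near 0 in every library. It had 1, 1, 1, 3 and 1 reads in controls 1 to 5, and 1, 0, 1, 0 and 0 reads in stiripentol 1 to 5. No library held more than 3 reads, the level at which a gene is taken as not detected here, so no fold change is given. Pooled over libraries there were 195617 reads of Ldha and 7 of Ldhb in control, and 98548 and 2 with stiripentol. Ldhb thus made up 0.00358% of the reads of both subunit genes in control (exact Clopper-Pearson 95% interval 0.00144 to 0.00737%) and 0.00203% with stiripentol (0.000246 to 0.00733%). These intervals overlap, and they cover counting error only, since amplified reads are not independent molecules. In no single library did the upper bound of this share pass 0.0423%. Over all libraries Ldha had 32685 times the reads of Ldhb, or 15503 times per base of annotated exon. A processed copy of Ldhb in the table (98% identity) held 2 reads in control and 6 with stiripentol, so few reads that could belong to Ldhb were counted there. Reads left uncounted for matching both places could not be seen. Ldhb lies at chromosome 6, bases 142490249 to 142507957 on the − strand, and its promoter printed above held none of the marked letters.

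Ldhd, the mitochondrial D-lactate dehydrogenase, was expressed at a low level. Its log2 CPM was 3.23, 3.15, 3.84, 4.42 and 4.39 in controls 1 to 5, and 4.37, 4.51, 3.96, 4.01 and 4.03 in stiripentol 1 to 5. The stiripentol libraries lay within or just above the range of the controls, controls 1 and 2 being lowest. The change of 0.37 (standard error 0.28, 95% confidence interval -0.24 to 0.98) was not called (limma adjusted p = 0.329). Within cluster A it was 0.59 and was called (limma adjusted p = 0.0185), and within cluster B it was 0.03 (limma adjusted p = 0.832). The difference between these effects, -0.56, missed the threshold (limma interaction, adjusted p = 0.0628). Ldhd lies at chromosome 8, bases 111623785 to 111630374, on the − strand.

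Slc16a1, which encodes the general lactate and pyruvate transporter MCT1, was the most abundant of the 3 transporter genes per base of exon, and its mean was higher with stiripentol, short of the threshold over all libraries. Its log2 CPM was 6.77, 6.81, 6.70, 6.16 and 6.06 in controls 1 to 5, and 6.62, 6.62, 7.01, 6.92 and 6.98 in stiripentol 1 to 5. The groups overlapped, with stiripentol 1 and 2 below controls 1 to 3, while within each cluster all stiripentol libraries lay above all controls. Over all libraries the change was 0.33 (standard error 0.17, 95% confidence interval -0.05 to 0.72, limma adjusted p = 0.173). Within cluster A Slc16a1 rose by 0.21 (limma adjusted p = 0.0137), and within cluster B it rose by 0.51 (limma adjusted p = 0.0011). With the cluster as a term in the fit the change of 0.33 was called (limma adjusted p = 0.00483), among 23.6% of genes called higher in that fit. Its standard error there was 0.07, with cluster labels drawn from these same values. Slc16a1 was higher in 5 of 5 pairs of libraries in the study's own numbering, and with these pairs as a block it was called (limma adjusted p = 0.0366), among 16.7% of genes called higher in that fit. Within the clusters themselves 37.7% and 25.7% of genes were called higher. Slc16a1 lies at chromosome 3, bases 104638668 to 104658462, on the + strand.

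Slc16a3, which encodes the lactate exporter MCT4, was scarce, and its mean was lower with stiripentol. It had 59, 59, 40, 118 and 45 reads in controls 1 to 5, and 11, 15, 58, 33 and 34 reads in stiripentol 1 to 5. In log2 CPM these were -0.09, 0.07, -0.59, 0.92 and 1.03 in control and -2.19, -1.76, 0.06, -0.76 and -0.61 in stiripentol libraries. Stiripentol 3 lay above controls 1 and 3 and stiripentol 5 lay just below control 3, whereas stiripentol 1 and 2 were lowest. The mean difference was -1.32 (two-sided exact permutation p = 0.0317, where this design allows no p below 0.00794). Slc16a3 missed the filter for the fit across genes, and in the fit without a filter it was not called (limma adjusted p = 0.122). Within cluster A the difference was -0.24 (exact permutation p = 0.4) and within cluster B -2.95 (exact permutation p = 0.333), in designs whose few libraries could not pass the threshold. The p rose to 0.0635 without any 1 of controls 2, 4 or 5 or of stiripentol 1, 2 or 4. Slc16a3 lies at chromosome 11, bases 120948480 to 120960868, on the + strand.

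Slc16a7, which encodes the high-affinity transporter MCT2, was not detected. It had 0 reads in all 5 controls and in stiripentol 3 to 5, 2 reads in stiripentol 1 and 1 read in stiripentol 2. A count of 0 allows up to 0.0459 to 0.134 CPM in the control libraries, the highest of these limits being that of control 5, the shallowest library. Slc16a7 lies at chromosome 10, bases 125219270 to 125389465, on the − strand.

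The balance of exporter to general transporter was therefore far on the side of Slc16a1. The log2 CPM of Slc16a3 minus that of Slc16a1 in the same library was -6.86, -6.74, -7.29, -5.24 and -5.02 in controls 1 to 5, and -8.82, -8.37, -6.95, -7.69 and -7.59 in stiripentol 1 to 5. Only stiripentol 3 lay among the controls, above control 3 and below controls 1 and 2. The difference of the means was -1.65 (-6.23 ± 1.03 in control and -7.88 ± 0.73 in stiripentol libraries, SD, n = 5, two-sided exact permutation p = 0.0159). Within cluster A it was -0.45 (exact permutation p = 0.2), and within cluster B -3.46 (exact permutation p = 0.333), where neither design can pass the threshold. Slc16a3 held 0.600 to 2.94% of the reads of the 3 transporter genes in control libraries and 0.184 to 0.774% in stiripentol libraries. Per base of annotated exon the mean CPM of Slc16a1 was 86.7 times that of Slc16a3 in control and 263 times with stiripentol.

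Bsg, which encodes basigin (CD147), the chaperone of MCT1 and MCT4, differed in direction between the clusters. Its log2 CPM was 9.06, 9.03, 9.24, 10.64 and 10.55 in controls 1 to 5, and 9.37, 9.26, 9.55, 9.44 and 9.40 in stiripentol 1 to 5. Controls 4 and 5 stood above all other libraries and controls 1 to 3 below all stiripentol libraries, so that the treated libraries lay between them. Over all libraries the change was -0.30 (standard error 0.33, 95% confidence interval -1.02 to 0.42, limma adjusted p = 0.505). Within cluster A Bsg rose by 0.35 (limma adjusted p = 0.00507), and within cluster B it fell by 1.28 on the log2 scale (limma adjusted p = 6.2e-07). The spread followed the controls, with an SD of 0.82 in control against 0.11 in stiripentol libraries. Bsg lies at chromosome 10, bases 79704491 to 79711969, on the + strand.

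The effects of stiripentol in the 2 clusters were compared directly with an interaction term in limma. The cluster labels came from the same values, so these p-values are descriptive. The Ldha effect was lower by 1.61 in cluster B than in cluster A (log2 difference -1.61, standard error 0.27, adjusted p = 0.00033), with a lower mean in both. The Slc16a1 effect was higher by 0.30 in cluster B (standard error 0.10, adjusted p = 0.0226), with a higher mean in both. For Bsg the difference was -1.64 (standard error 0.12, adjusted p = 1.57e-06), with opposite signs. The interaction was called for 3 of the 4 members tested, where it was called for 63.3% of all genes tested, so the share among members was near that of all genes. In cluster A 0 members were lower and 3 were higher (27% and 37.7% of all genes), and in cluster B 2 were lower and 1 was higher (46.5% and 25.7% of all genes).

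**Figure D2:**
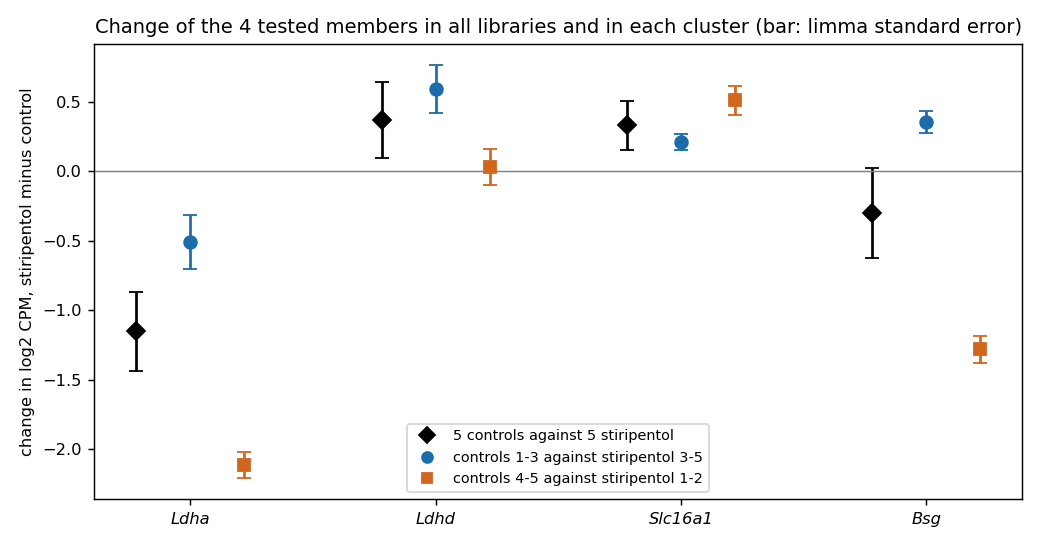
Change in log2 CPM, stiripentol minus control (y axis), of the 4 tested members in all 10 libraries (diamonds), in controls 1 to 3 against stiripentol 3 to 5 (circles) and in controls 4 and 5 against stiripentol 1 and 2 (squares), with limma standard errors. Ldha is below 0 and Slc16a1 above 0 in each, and Bsg is at 0.35 in one cluster and -1.28 in the other.

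The members also kept an order of levels. In RPKM (reads scaled to the length of annotated exons and to the library total), Bsg was highest in every library, followed by Ldha, Slc16a1, Ldhd and Slc16a3, with Ldhb and Slc16a7 at the limit of detection. The means were 524, 224, 20.9, 2.81 and 0.241 for the first 5 in control, and 374, 103, 25.9, 3.42 and 0.0983 with stiripentol. The 3′ kit that the methods name yields reads that do not scale with length, and by reads alone Ldha exceeded Bsg in 2 libraries, controls 1 and 2, so these neighbours are ordered by length scaling in part. From Ldha down to Slc16a3 the ranges of RPKM over the libraries did not overlap, though some steps were smaller than the spread of a gene between libraries.

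Beyond the members, 6 lists of related genes were examined, with 76 genes listed and 60 tested. Over all libraries 14 were lower (23.3%, against 14.1% of all genes; 9 without control 1, and 9 without stiripentol 2) and 6 were higher (10.0%, against 13.6%). The median change of all genes was -0.06.

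Other monocarboxylate transporters and their chaperones had 6 genes tested, of which 4 were lower and 0 higher, with a median change of -1.56. Slc16a13, a lactate transporter, fell by 2.05 on the log2 scale (limma adjusted p = 0.00145), from 5.28 ± 0.40 to 3.23 ± 0.65 log2 CPM (SD, n = 5). Slc16a11, which lies in the same subfamily and carries pyruvate, changed by -1.92 (limma adjusted p = 0.00978). Emb, which encodes embigin, changed by -1.40 (limma adjusted p = 0.0393). These 3 genes were lower in both clusters, and each was called there. They were picked by their call over all libraries, of which the clusters are parts, so this is no separate support. Slc16a6 and Slc16a10, the latter an aromatic amino acid transporter, were not called over all libraries, and their effects differed between the clusters (limma interaction, adjusted p = 5.81e-05 and 5.24e-07). Both were singled out after their values were seen. Slc16a6 rose by 2.69 in cluster A (limma adjusted p = 8.58e-06) and differed by -0.13 in cluster B (limma adjusted p = 0.724). Slc16a10 rose by 1.41 in cluster A (limma adjusted p = 2.09e-05) and fell by 1.21 in cluster B (limma adjusted p = 5.84e-05).

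**Figure D3:**
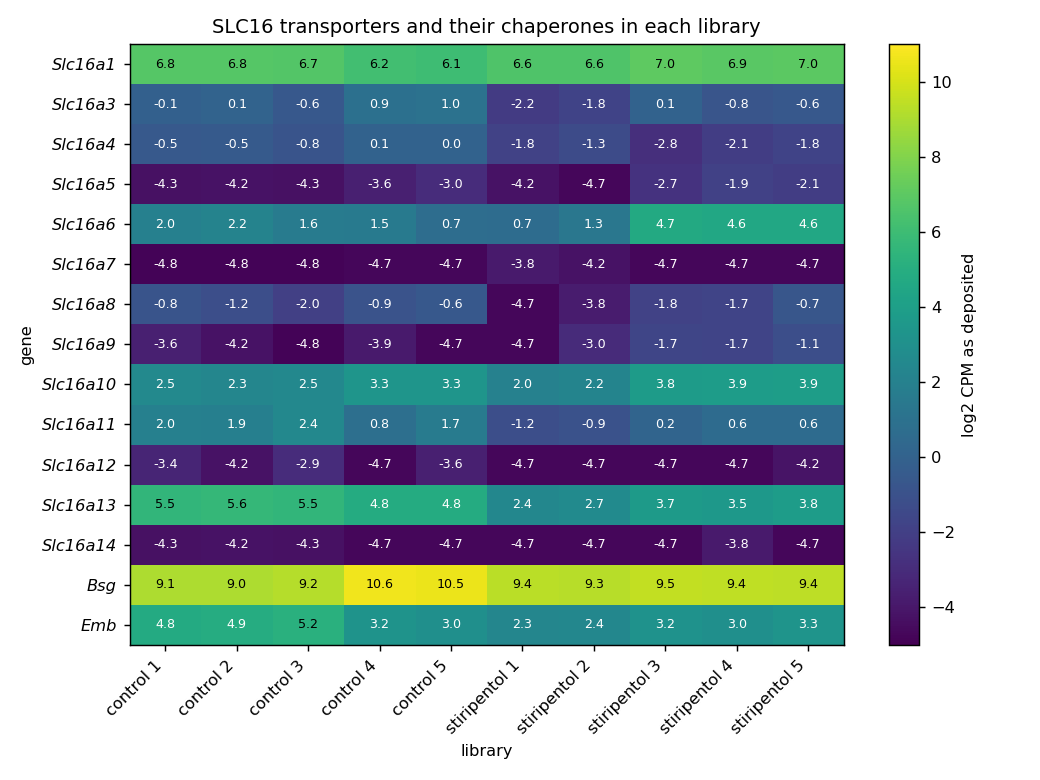
Log2 CPM as deposited (color, and printed in each cell) of 13 SLC16 genes, Bsg and Emb (rows) in the 10 libraries (columns). Slc16a13 is lower in all stiripentol libraries than in all controls, and Slc16a6 is high only in stiripentol 3 to 5.

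Glycolysis had 16 genes tested, of which 4 were lower and 0 higher, with a median change of -0.20. Pfkl, the liver type of phosphofructokinase, fell by 1.61 on the log2 scale (limma adjusted p = 0.0167). Pgam1 (phosphoglycerate mutase) changed by -1.12 (adjusted p = 0.0184), Eno1 (enolase) by -0.81 (adjusted p = 0.0281) and Pkm (pyruvate kinase) by -0.64 (adjusted p = 0.0102) in the same limma fit. These 3 enzymes catalyze the successive last steps that lead to pyruvate, the substrate of LDHA. The 4 called genes were lower and called in both clusters, which are parts of the libraries they were picked on. The list as a whole was not lower in both. In cluster A 4 of its genes were lower and 8 higher (median 0.28, against 0.08 for all genes). In cluster B 12 were lower and 0 higher (median -1.01, against -0.25 for all genes). Among all genes 27% were lower and 37.7% higher in cluster A, and 46.5% lower and 25.7% higher in cluster B. The interaction was called for 13 of the 16 genes, and for 63.3% of all genes.

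Genes for the mitochondrial entry of pyruvate, the other fate of this substrate, had 14 tested, of which 1 was lower and 2 were higher, with a median change of 0.22. Pdhb, a subunit of pyruvate dehydrogenase, rose by 0.78 (limma adjusted p = 0.000353), from 6.38 ± 0.14 to 7.16 ± 0.03 log2 CPM (SD, n = 5). Mpc2, a subunit of the mitochondrial pyruvate carrier, rose by 0.47 (limma adjusted p = 0.0252). Pdp1, a phosphatase that activates pyruvate dehydrogenase, fell by 0.55 on the log2 scale (limma adjusted p = 0.0277). Pdk1, a kinase that inactivates this enzyme, changed by -2.93 in cluster B (limma adjusted p = 1.28e-08) and by 0.06 in cluster A (limma adjusted p = 0.594), and was not called over all libraries (-1.13, limma adjusted p = 0.0874). Pdk1 was singled out after its values were seen. Of the 14 genes, 6 had opposite signs in the 2 clusters, a count without a share over all genes to set it against. The interaction was called for 6 of the 14, and for 63.3% of all genes.

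The shuttles that reoxidize cytosolic NADH without lactate had 10 genes tested, of which 2 were lower and 3 higher, with a median change of 0.01. Got1, the cytosolic aspartate aminotransferase, rose by 1.16 (limma adjusted p = 0.000181). Its mitochondrial counterpart Got2 rose by 0.50 (limma adjusted p = 0.0361), and Gpd2, the mitochondrial glycerol phosphate dehydrogenase, by 0.50 (limma adjusted p = 0.0032). The aspartate/glutamate carrier Slc25a13 fell by 2.50 on the log2 scale (limma adjusted p = 0.0496), and the cytosolic Gpd1 fell by 2.08 (limma adjusted p = 0.000731). All 5 genes kept their direction and were called in both clusters, which are parts of the libraries they were picked on. Of the 10 genes tested, 5 had opposite signs in the 2 clusters, again without a share over all genes to set this against. The interaction was called for 9 of the 10, and for 63.3% of all genes.

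**Figure D4:**
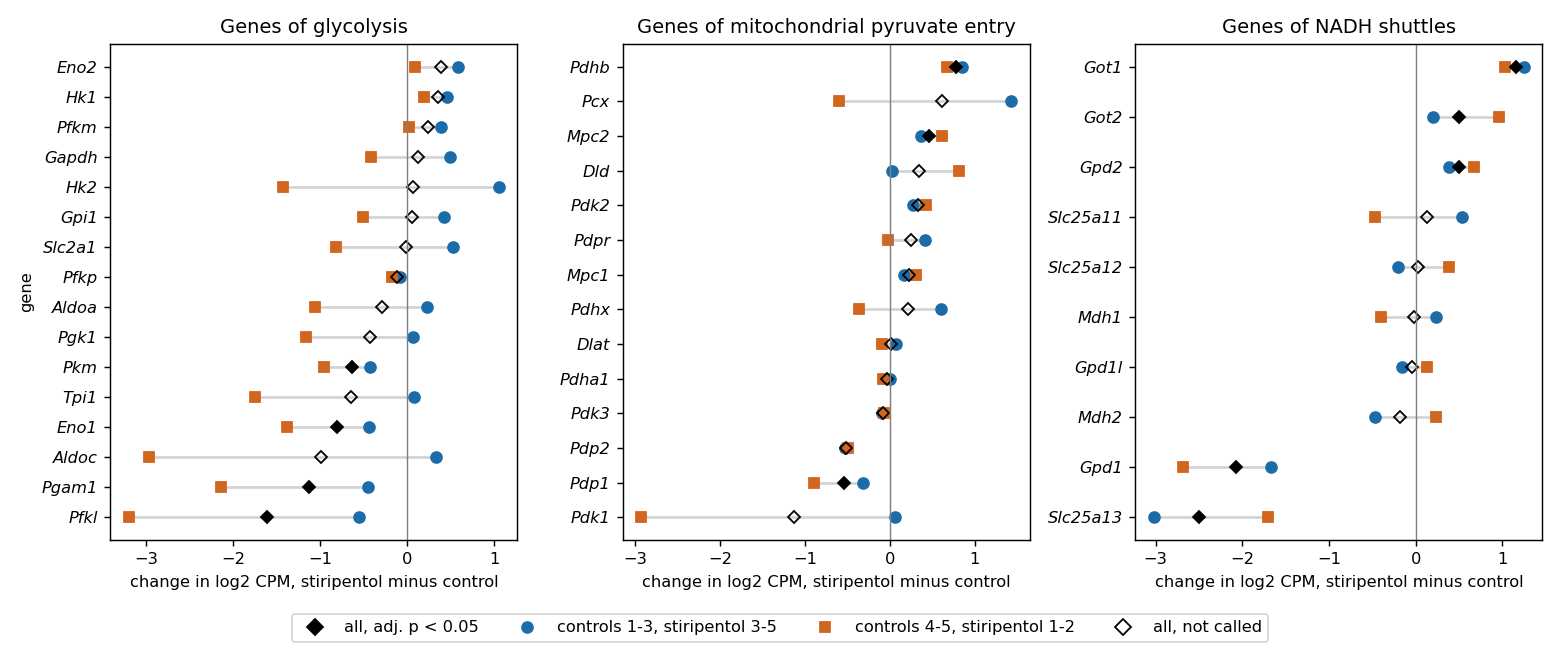
Change in log2 CPM, stiripentol minus control (x axes), of each tested gene (rows) for glycolysis, mitochondrial pyruvate entry and NADH shuttles, over all libraries (diamonds, filled where limma adjusted p is under 0.05) and within the 2 clusters (circles and squares). In the 2 clusters 8 of 16 glycolysis, 6 of 14 pyruvate entry and 5 of 10 shuttle genes lie on opposite sides of 0. The share of all genes that do so is not given here, so these counts are not a trait of the lists. Got1, Gpd2, Gpd1 and Pdhb lie on the same side of 0 in both.

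Acid extrusion had 5 genes tested, of which 1 was lower and 1 higher, with a median change of 0.30. Car9, a membrane carbonic anhydrase, rose by 1.45 (limma adjusted p = 0.0184) from a control level of -0.58 log2 CPM, below the filter, which it passed through its level of 0.87 with stiripentol. Slc4a7, a sodium bicarbonate cotransporter, fell by 0.72 on the log2 scale (limma adjusted p = 0.0423). Neither was called in both clusters. Among 9 regulators tested, 2 were lower and 0 higher, with a median change of -0.21. Epas1 (HIF-2α) fell by 3.15 on the log2 scale (limma adjusted p = 0.00276), and the HIF prolyl hydroxylase Egln1 fell by 1.45 (limma adjusted p = 0.00921). Both were called in both clusters, which are parts of the libraries they were picked on. Epas1, Slc16a11 and Gpd1 passed the filter through their control level, with means of -0.55, -0.16 and -0.40 log2 CPM in stiripentol libraries. Hif1a (HIF-1α) changed by 0.01 (limma adjusted p = 0.97) and was called in neither cluster. Myc changed by -0.52 and was not called over all libraries (limma adjusted p = 0.24). Within cluster A Myc fell by 0.58 on the log2 scale (limma adjusted p = 0.000627), and within cluster B by 0.45 (limma adjusted p = 0.00992). Among all genes 27% and 46.5% were lower in these clusters.

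The genes whose log2 CPM was most like that of a member over the 10 libraries were listed by Pearson's r, as a description, since all libraries share clusters and scaling. For Ldha these were Tmem51 (r = 0.991), Srd5a1 (0.991) and Fbxl15 (0.991). For Ldhd they were Ascc1 (0.994), H2-K2 (0.990) and Manba (0.989), and for Slc16a1 they were Mybbp1a (0.993), Lrrc59 (0.990) and Mtfr1 (0.989). For Bsg they were Alox5ap (0.995), Cyb5a (0.988) and Rasgrp3 (0.985).

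Markers of other cell types moved with the treatment as well. The fibroblast list had 6 genes tested, of which 4 were lower (Col3a1, Col1a2, Pdgfrb and Pdgfra) and 0 higher, and its summed level was 404 to 696 CPM in control and 152 to 185 CPM in stiripentol libraries. The leukocyte list summed to 6.50 to 19.0 CPM in control and 59.0 to 103 CPM in stiripentol libraries, with Cd68 higher and the defining Ptprc at no more than 3 reads in any library. The tuft list went from 1.93 to 7.00 CPM to 25.2 to 59.7 CPM, with Avil, the only gene of the list tested, called higher. The tuft regulator Pou2f3, which missed the filter, went the other way, at 0.99 ± 1.14 log2 CPM in control and -2.53 ± 0.75 in stiripentol libraries (SD, n = 5), and Trpm5 at -1.98 ± 0.46 and -3.63 ± 0.88. Epithelial markers, carried by the keratins, summed to 2380 to 2959 CPM in control and 1809 to 2319 CPM in stiripentol libraries. Neuroendocrine markers summed to 93.5 to 120 and 127 to 157 CPM. Endothelial markers reached at most 0.638 and 1.07 CPM, and male germ cell markers, which bear on Ldhc, at most 0.0314 and 0.167 CPM. In bulk RNA a change in the share of a cell state and a change in RNA per cell cannot be told apart, and the part of these markers in the changes of the members was not tested.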

How the data were processed

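RNA sequencing of mSCLC-2405 cells gave 5 control and 5 stiripentol libraries, grouped by the titles of the sample records. The authors deposited log2 CPM for each gene and library, made with GENAVi per the study's methods, on genome build mm10 per the submitters' processing notes. Aligner, annotation and counting are not given in the sources used here, nor whether strand was used. The methods name Lexogen QuantSeq 3′ libraries and the sample records TruSeq total RNA. The authors also deposited group means on the log2 scale, p-values and q-values and a fold and a difference of the group means with the log2 of the fold, which were not used. Of the rows, 42 repeat the symbol of an earlier row. All rows entered the fits and the counts over all genes, and a named gene is given by its row with the highest mean.

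The members and gene lists were chosen with earlier results of these data known. Whole reads were recovered from the deposited log2 values (all within 0.05 of a whole number), with medians of 63607057 reads in control and 57977596 in stiripentol libraries. Group comparisons used limma 3.58.1 under R 4.3.3, with moderated variances that follow the mean and no covariate, on the deposited values of 12306 genes with a mean log2 CPM above 0, with Benjamini-Hochberg adjustment and calls at an adjusted p under 0.05. All adjusted p-values in the text are from this tool. Single values below the filter, and the difference of Slc16a3 and Slc16a1, were tested by exact permutation of the group labels (two-sided, scipy 1.17.1). The planned test of Ldha minus Ldhb is not given, because Ldhb had at most 3 reads in any library. Lists are described by their counts and medians. Named genes were every member, every called gene of a related list with at most 6 calls, and the 3 genes most correlated with each tested member. The results of some genes of these lists are not reported here. Exon lengths and positions are from GENCODE M21 (GRCm38), promoters from RefSeq (GRCm38.p6), and processed copies were found with blastn 2.17.0+ at 90% identity or more over at least 100 bases. Python 3.11.15, pandas 2.3.3 and numpy 2.4.6 were used. The fits were tested on simulated data.

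Libraries were checked for copies, and those of the same group and cluster differed by a chi-square of at least 8.39 per gene, where counting alone gives about 1. Alternatives were a replicate block, a cluster term, each cluster alone, leaving out each library, other scalings, filters and pseudocounts, limma voom on the recovered reads and no trend. Alternatives added after the data were seen were 1 mean per group and cluster, each control cluster against all stiripentol libraries, a block in the study's own numbering (matched to the deposited columns by their values), and the alternatives for the level of Slc16a3.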

Additional observations from a re-analysis of the deposited data

Results flagged for a closer look

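The effect of stiripentol differed between the library clusters for Ldha (log2 difference, cluster B minus cluster A, -1.61), Slc16a1 (0.30) and Bsg (-1.64), each past the threshold of the limma interaction test, as for 63.3% of all genes tested. Control 5 had 22375625 reads, far below the other 4 controls, by Dixon's test for a single outlying value. This was 1 of 14 groups of 5 values tested, where chance gives about 0.7. Without this library Ldha was still called, and Slc16a3 was not (exact permutation p = 0.0635).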

How the results depend on the processing

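Ldha was lower under all 26 alternatives and called under 23. It was not called within cluster A (adjusted p = 0.0524), in controls 1 to 3 against all stiripentol libraries (adjusted p = 0.0607) or with 1 mean per group and cluster (adjusted p = 0.456, limma throughout). Without 1 library it ranged from -1.34 to -0.995 (adjusted p 0.00789 to 0.0345). Bsg turned to 0.35 within cluster A and to 0.29 in controls 1 to 3 against all stiripentol, and Ldhd to -0.23 in controls 4 and 5 against all stiripentol. The cause of these changes was not tested.

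Genes lower and higher over all libraries (1740 and 1674) numbered 3336 and 2908 with a cluster term, 3322 and 4637 within cluster A, 5726 and 3158 within cluster B, and 0 and 0 by limma on 1 mean per group and cluster, where 1116 had an unadjusted p under 0.05. Members lower and higher (1 and 0) were 1 and 1 with a cluster term, 0 and 3 in cluster A, 2 and 1 in cluster B, 2 and 1 for controls 4 and 5 against all stiripentol, 0 and 2 for controls 1 to 3 against all stiripentol, and 0 and 0 with cluster means. Related genes (14 and 6) were 13 higher with a cluster term, 25 higher in cluster A, 33 lower and 10 higher in cluster B, 11 higher for controls 1 to 3 against all stiripentol, and 0 and 0 with cluster means. Slc16a3 minus Slc16a1 was -0.45 in cluster A and -3.46 in cluster B.

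Leaving out 1 library gave 1171 to 1802 genes lower, 1218 to 1706 higher, 1 to 1 members lower, 0 to 0 higher, 9 to 13 related genes lower (9 without control 1 and 9 without stiripentol 2), 4 to 7 higher, and -1.92 to -1.35 for Slc16a3 minus Slc16a1. Same-numbered libraries deviated from their group means with correlations of -0.204, -0.240, 0.061, -0.200 and -0.176, so these values showed no pairing by the numbers of the sample records. Whether same-numbered libraries were cultured or prepared together is not given in the sources used here. With the replicate number as a block, 1062 genes were lower and 1020 higher, Slc16a3 minus Slc16a1 had p = 0.125 (-1.65, exact permutation) and Slc16a3 p = 0.125, where 5 blocks allow no p below 0.0625, and Ldha stayed called (limma adjusted p = 0.0421). In the study's own numbering the correlations were 0.084 to 0.224. That replicate block gave 2199 genes lower and 2050 higher, 1 member lower and 1 higher, p = 0.0625 for Slc16a3 minus Slc16a1 (-1.65) and 0.188 for Slc16a3 (exact permutation), and a limma adjusted p of 0.0407 for Ldha. Depth limits Ldhb and Slc16a7, for which no change could be measured.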
